A study of Mus musculus with 18 samples.

Results

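The mitochondrial carriers (the Slc25a family with the uncoupling proteins) and the translocases that bring proteins into mitochondria (Tomm and Timm) were described here in muscle of mice that flew in orbit. A gene was taken when a probe set of the array named it alone and its symbol started with Slc25a, Timm or Tomm or was Ucp1 or Ucp3. The rule gave 57 of the 12393 genes on the array, 35 carriers and 22 import genes, measured by 111 of the 20380 probe sets that name 1 gene. Where several probe sets named a gene, the one with the highest mean over the 18 arrays stands for it.

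The study asked how spaceflight changes gene expression in soleus, a slow postural calf muscle, and in extensor digitorum longus (EDL), a fast muscle of the shin. Adult male C57BL/N6 mice were flown for 30 days aboard the Bion-M1 biosatellite (BF), kept on the ground for 30 days in a copy of its habitat (BG), or kept for the same period in standard cages of an animal facility (FC). RNA of each muscle was read on 3 arrays per group, 18 in all. BF and BG mice ate paste food and FC mice ate chow, and BF mice were also transported from the landing site before dissection, so that flight, landing and transport cannot be told apart in BF, nor housing and food in FC. The labels do not say whether the 3 arrays of a group, or both muscles of a number, came from separate mice, so that p values measure the spread between these samples.

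Carriers sit in the inner mitochondrial membrane and exchange nucleotides, phosphate, fatty acyl groups, amino acids and organic acids with the cytosol. Like most mitochondrial proteins they are made in the cytosol, pass the outer membrane through the TOM complex, and are then guided by small TIM chaperones to TIM22, which inserts carriers, or handed to TIM23, which takes proteins with a cleavable leader. Slow muscle is known for a high content of mitochondria.

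The promoters of 3 genes that fell in BF soleus and of Slc25a30, which rose, are shown so that the letters counted below can be seen in place. Each is the RefSeq window from 250 bases before to 50 bases after an annotated start site in mouse build GRCm38.p6, read 5′ to 3′ on the gene's strand. Capitals mark CCGGAAG or its reverse complement CTTCCGG, the core letters bound by ETS factors such as GABP, and a run of CTTCCGGAAG holds both in overlap. The windows are chr9:108661886-108662185 on the plus strand for Slc25a20, chr15:79670618-79670917 on the plus strand for Tomm22, chr16:38522614-38522913 on the minus strand for Timmdc1 and chr14:75786988-75787287 on the minus strand for Slc25a30.
Slc25a20: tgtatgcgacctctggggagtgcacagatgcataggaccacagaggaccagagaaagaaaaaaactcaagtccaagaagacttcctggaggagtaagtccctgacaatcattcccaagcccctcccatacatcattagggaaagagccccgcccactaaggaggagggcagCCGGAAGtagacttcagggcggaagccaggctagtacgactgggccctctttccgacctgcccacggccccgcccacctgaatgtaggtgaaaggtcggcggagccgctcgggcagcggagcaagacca
Tomm22: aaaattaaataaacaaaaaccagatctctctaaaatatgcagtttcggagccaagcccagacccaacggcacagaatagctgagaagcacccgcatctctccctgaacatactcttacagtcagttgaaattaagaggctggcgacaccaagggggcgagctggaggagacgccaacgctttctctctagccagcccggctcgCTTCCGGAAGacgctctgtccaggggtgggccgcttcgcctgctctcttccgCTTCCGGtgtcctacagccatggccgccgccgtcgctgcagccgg
Timmdc1: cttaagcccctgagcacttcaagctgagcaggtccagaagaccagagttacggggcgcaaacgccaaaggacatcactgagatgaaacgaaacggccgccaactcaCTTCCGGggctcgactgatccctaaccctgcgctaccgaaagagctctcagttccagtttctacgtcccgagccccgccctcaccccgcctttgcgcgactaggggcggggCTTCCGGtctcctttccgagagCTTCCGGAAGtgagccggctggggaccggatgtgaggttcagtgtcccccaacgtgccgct
Slc25a30: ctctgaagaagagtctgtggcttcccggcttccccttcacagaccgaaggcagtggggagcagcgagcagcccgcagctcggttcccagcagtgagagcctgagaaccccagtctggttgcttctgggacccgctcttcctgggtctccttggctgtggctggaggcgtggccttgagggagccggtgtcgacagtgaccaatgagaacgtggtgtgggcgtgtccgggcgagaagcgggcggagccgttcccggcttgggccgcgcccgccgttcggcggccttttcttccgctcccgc

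A promoter window was given for 48 of the 57 genes, and 16 of these (33.3%) held CCGGAAG on either strand, against 16.4% of 9883 genes of the array and 8.86% of all 32851 windows. Among the 17 genes that fell in BF soleus against BG, 15 had a window and 6 of those held it, among them Slc25a20, Tomm22 and Timmdc1 shown above. Those 3 were shown to give the letters in place, and do not stand for all genes that fell. The windows of Slc25a11, Slc25a15, Timm22 and Tomm40, which also fell, did not hold it. Slc25a4, Slc25a25 and Timm23 held it and did not pass. Whether the share differed between genes that fell and the others was not tested. The letters GCGCANGCG, of the factor NRF-1, were found in 4 of 48 (8.33%), against 12.5% of the array's genes. The letters TNAAGGTCA, of the estrogen-related receptors, were found for Timm8b alone (2.08%, against 1.05%). Such a match describes letters in a window and not a bound site, and the window of Slc25a30 held none of the 3 motifs.

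In soleus, 19 of the 57 genes differed between BF and BG at an adjusted p under 0.05 (limma with Benjamini-Hochberg adjustment over all probe sets), 17 of them lower and 2 higher in BF. Over all genes of the array 23.3% differed, 12.3% lower and 11.1% higher. The median log2 change was -0.24 for the 57 genes and 0.03 for all genes, and 44 of the 57 lay below zero, beside 5672 of all 12393 genes. Against FC, 15 genes were lower and 6 higher in BF soleus, where 25.1% of the array's genes differed, 16% lower and 9.02% higher, and the median was -0.13 against 0 for all genes. Both comparisons use the same 3 BF arrays. Lower than in either ground group were 10 genes, namely Slc25a3, Slc25a15, Slc25a20, Slc25a33, Slc25a35, Slc25a39, Slc25a42, Timm22, Timmdc1 and Tomm40l. Slc25a30 was the gene of the 57 that was higher than in both. The shares of all genes lower or higher than in both ground groups were not counted. The 19 genes became 12 without BG soleus replicate 2, and the 21 genes became 13 without FC soleus replicate 2.

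**Figure D1:**
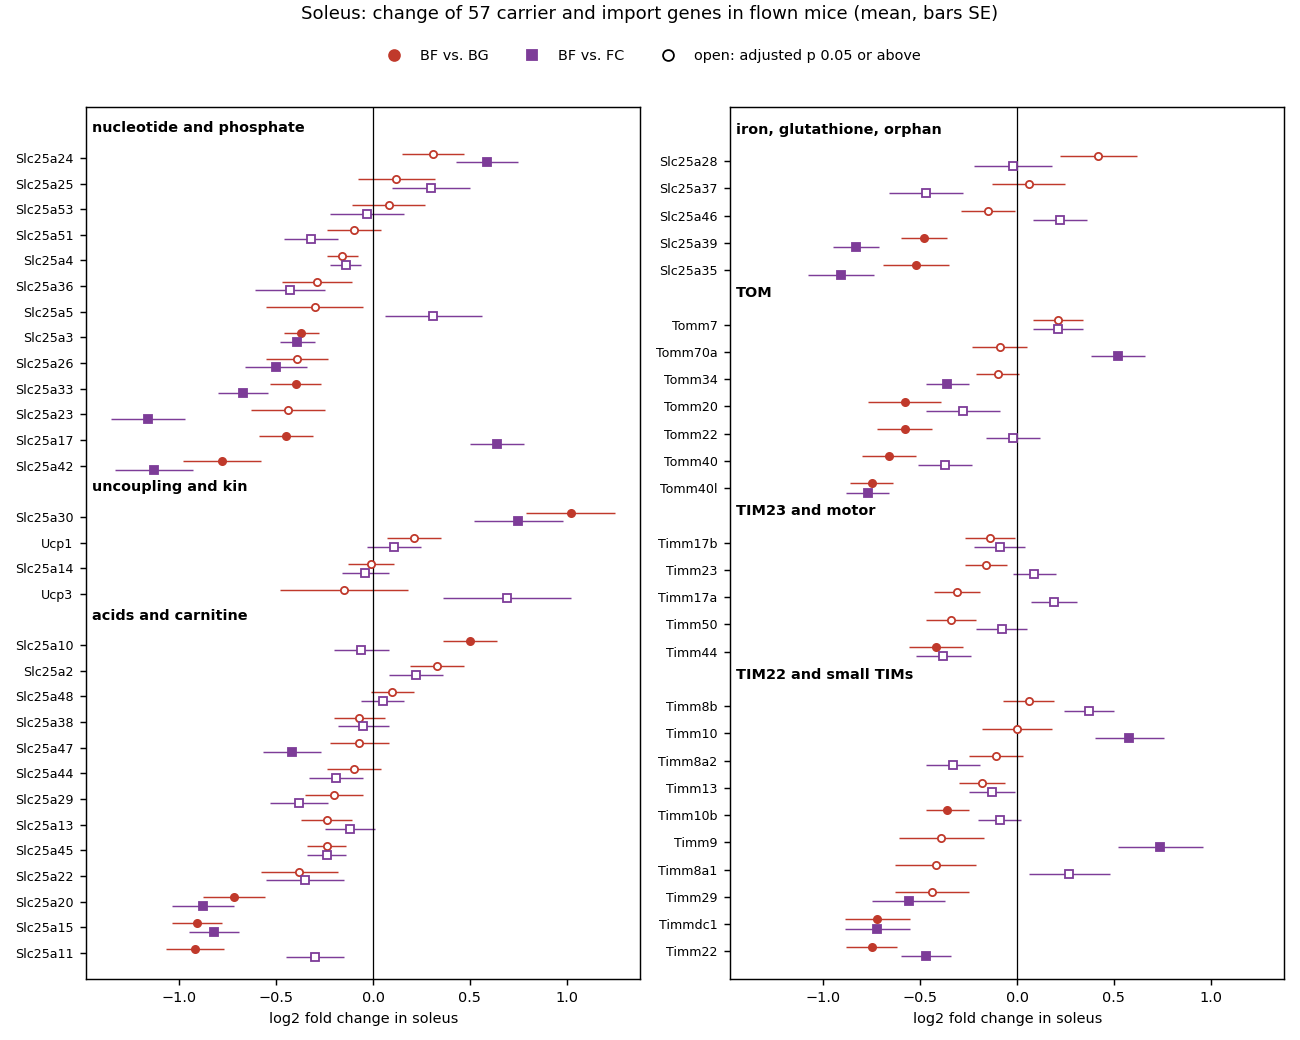
Log2 fold change of each of the 57 genes in soleus, BF vs. BG (circles) and BF vs. FC (squares), with standard errors, grouped by role. Filled symbols passed an adjusted p of 0.05; most filled symbols lie left of zero, and Slc25a30, at 1.02 and 0.75, lies farthest to the right against BG.

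Some markers of fibre types and of other cells also moved with BF in soleus. The summed linear signal of 8 slow-fibre genes was 58400 to 80300 on the BF soleus arrays and 109000 to 112000 on those of BG, while that of 10 fast-fibre genes was 117000 to 152000 against 90000 to 98200. Of these genes 1 slow one passed as lower against BG, Casq2 (-2.06), and 5 fast ones rose, with Actn3 at 4.43 and Myh4 at 4.26. All 8 slow genes lay below zero, at -2.06 to -0.64 with a median of -0.73, though 7 did not pass. All 10 fast genes lay above zero, at 0.01 to 4.43 with a median of 0.24. Myh7, the slow myosin, had a mean log2 signal of 13.75 in BG soleus and 8.82 in BG EDL, as the muscle labels state. Of 5 adipocyte genes 4 rose against both BG (Lep 2.96, Cidec 2.48, Adipoq 2.34, Retn 1.89) and FC, over 2-fold in each case, and Fabp4 did not pass (-0.17 against BG). The summed signal of the 5 overlapped, at 7320 to 15700 in BF, 7720 to 9820 in BG and 6480 to 7790 in FC soleus. Sums of 7 macrophage genes were 1740 to 3720 in BF, 1070 to 1230 in BG and 1490 to 1810 in FC soleus. Cd68 (3.40) was the 1 gene that passed against BG, and Adgre1, Cd163, Csf1r and Mrc1 gave -0.03 to 0.40. Lyz2 and Cd14 had mean log2 signals of 9.38 and 6.42 in BF and 8.78 and 5.87 in BG soleus. Against FC 1 of the 7 rose and 1 fell. Sums of 5 endothelial genes were 787 to 992 in BF against 1280 to 1370 in BG and 1410 to 1590 in FC, and 3 of the 5 fell against BG. Against BG, 1 of 2 Schwann cell genes rose, Pmp22 (0.74, with Mbp at 1.02 not passing), as did 1 of 5 neutrophil genes, S100a8 (1.07). Of 6 brown adipocyte genes, some of which muscle also expresses, 5 fell and Elovl3 rose (0.33). The part of these cells in the changes below was not tested, and in whole muscle fewer cells of a type and less RNA per cell cannot be told apart. The BF soleus arrays also varied most, with a median SD over the 57 genes of 0.21, against 0.10 in BG and 0.12 in FC soleus.

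Among the 13 carriers of organic acids, amino acids and carnitine, 3 fell and 1 rose in BF soleus against BG. Slc25a11, the oxoglutarate carrier of the malate-aspartate shuttle, had log2 signals of 10.42, 10.24 and 10.59 in BF, 11.35, 11.36 and 11.30 in BG, and 10.75, 10.54 and 10.89 in FC soleus. All BF arrays lay below all BG arrays but overlapped those of FC. The log2 change against BG was -0.92 ± 0.15 (SE, n = 3 per group, adjusted p = 0.00043), 1.89-fold lower, and FC too was lower than BG, by a log2 change of -0.61 (adjusted p = 0.013), a call that ended without FC soleus replicate 2 (adjusted p = 0.08).

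Slc25a15, the ornithine carrier, measured 7.68, 7.12 and 7.59 in BF, 8.31, 8.48 and 8.31 in BG and 8.29, 8.21 and 8.34 in FC soleus. Both ground groups lay together and above every BF array, with log2 changes of -0.91 ± 0.13 (adjusted p = 0.00025) and -0.82 ± 0.13 (adjusted p = 0.00038). Its other probe set, with a mean signal of 4.32, gave 0.06, and the mean of both gave -0.26 against FC, which did not pass (adjusted p = 0.10). Slc25a20, the carnitine-acylcarnitine carrier that brings long-chain fatty acyl groups to oxidation, had signals of 9.99, 10.03 and 9.89 in BF, 10.46, 11.03 and 10.59 in BG and 10.68, 10.87 and 10.99 in FC soleus. BF again lay below both, by -0.72 ± 0.16 (adjusted p = 0.0043) and -0.88 ± 0.16 (adjusted p = 0.00084), and its second probe set fell as well, by 0.77 and 0.47 on the log2 scale. The promoter of Slc25a20 is among those shown above that hold CCGGAAG.

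Slc25a10, the dicarboxylate carrier, went the other way against BG, at 7.34, 7.45 and 7.07 in BF and 6.78, 6.74 and 6.84 in BG, a log2 change of 0.50 ± 0.14 (adjusted p = 0.015) that was lost without BF soleus replicate 1 or 2 or BG soleus replicate 2 (adjusted p up to 0.059). FC, at 7.62, 7.32 and 7.10, overlapped BF and exceeded BG by 0.56 (adjusted p = 0.015), and the gene's second probe set gave 0.12 for BF against BG. The other 9 members of this group, among them Slc25a13 (an aspartate-glutamate carrier, -0.24), Slc25a22 (a glutamate carrier, -0.38) and Slc25a44 (a carrier of branched-chain amino acids, -0.10), did not pass. Of these, Slc25a29 and Slc25a44 did pass on another probe set of the gene.

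**Figure D2:**
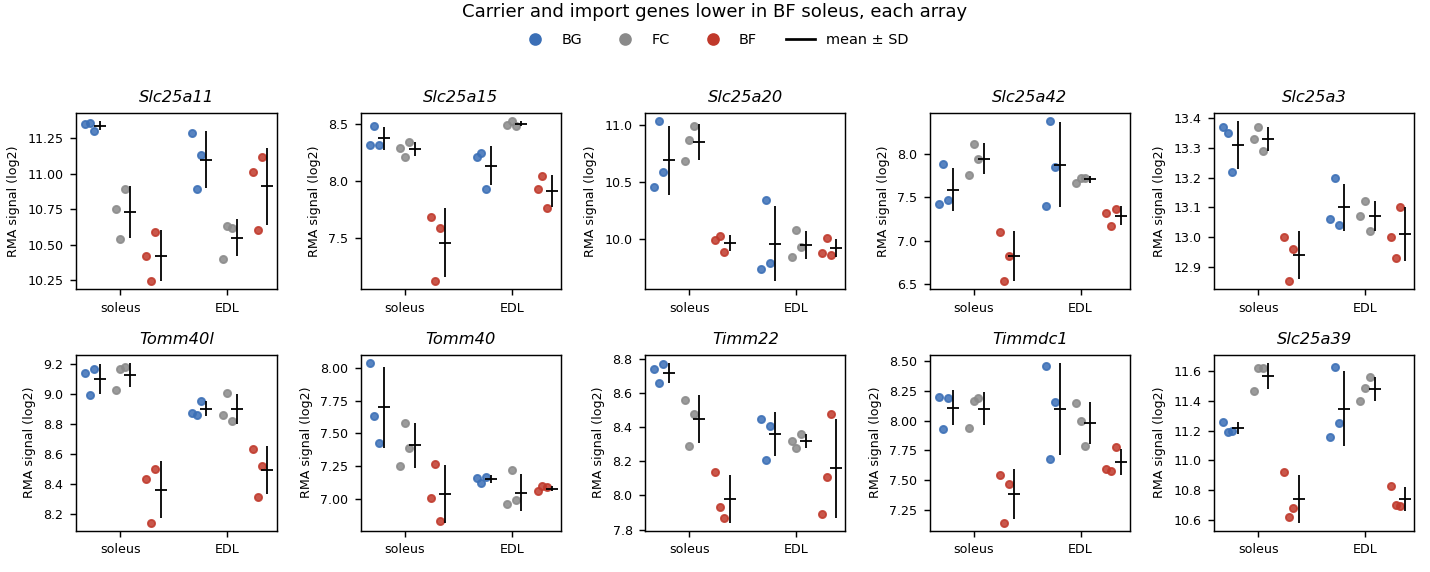
Log2 RMA signals on each array for 10 genes that were lower in BF soleus than in BG soleus, with the mean and SD of each group of 3. In soleus the BF points lie below all BG points in every panel; in EDL the BF and BG points overlap in most panels, and Slc25a39 is the panel where BF passed against BG.

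Carriers of nucleotides, phosphate and coenzymes had 4 of 13 members lower in BF than in BG soleus and 0 higher. Slc25a42, which carries coenzyme A, stood at 7.10, 6.53 and 6.82 in BF, 7.42, 7.89 and 7.47 in BG and 7.76, 8.12 and 7.95 in FC soleus. Its log2 changes were -0.78 ± 0.20 (adjusted p = 0.011) relative to BG and -1.13 ± 0.20 (adjusted p = 0.00069) relative to FC, the latter 2.19-fold lower with no overlap, and the call against BG ended without BG soleus replicate 2 (adjusted p = 0.059). Slc25a3, the phosphate carrier that feeds ATP synthase, differed by less but with little spread. It had 13, 12.85 and 12.96 in BF, 13.37, 13.35 and 13.22 in BG and 13.33, 13.37 and 13.29 in FC soleus, with changes of -0.37 ± 0.09 (adjusted p = 0.0082) and -0.39 ± 0.09 (adjusted p = 0.0049). Slc25a33, a pyrimidine nucleotide carrier, changed by -0.40 and -0.67 against BG and FC, the first lost without any single BF or BG soleus array (adjusted p up to 0.10).

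The ADP/ATP carriers, which export ATP, did not pass in soleus. Slc25a4, the form of heart and skeletal muscle, had 13.89, 13.85 and 14.06 in BF and 14.07, 14.11 and 14.11 in BG, a log2 change of -0.16 with an interval of -0.34 to 0.02 (adjusted p = 0.18), close to the highest signal of the arrays, 14.53. Slc25a5 varied widely in BF, at 10.73, 11.56 and 10.20 against 11.50, 10.83 and 11.06 in BG, and its change of -0.30 had an interval of -0.82 to 0.22 (adjusted p = 0.41). The highest BF array lay above every BG array and the other BF arrays below. Of the 8 probe sets of Slc25a5, the one with a mean signal of 6.65 did pass, at -1.19.

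Slc25a23, an ATP-Mg/phosphate carrier regulated by calcium, differed between the ground groups. Signals were 5.66, 5.69 and 5.80 in BF, 6.15, 6.31 and 6 in BG and 6.62, 6.92 and 7.10 in FC soleus, so that the groups followed each other without overlap. BF was lower than FC by a log2 change of -1.16 ± 0.19 (adjusted p = 0.00034), 2.24-fold, and lower than BG by -0.44, which did not pass (adjusted p = 0.098). FC exceeded BG by 0.72 ± 0.19 (adjusted p = 0.021), a call that ended on leaving out any of BG soleus replicates 1 and 3 and FC soleus replicates 2 and 3 (adjusted p up to 0.088).

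Slc25a17, a carrier of coenzymes that belongs to the family but serves peroxisomes, lay in BF between the ground groups. Soleus signals were 6.95, 7.13 and 6.88 in BF, 7.37, 7.47 and 7.47 in BG and 6.23, 6.31 and 6.51 in FC, with no overlap. BF was lower than BG by -0.45 ± 0.14 (adjusted p = 0.032) and higher than FC by 0.64 ± 0.14 (adjusted p = 0.0038), and FC was lower than BG by -1.09 ± 0.14 (adjusted p = 0.00061). The call against BG ended on leaving out BF soleus replicate 1 or 3 or any BG soleus array (adjusted p up to 0.092). A second probe set, with a mean signal of 4.30, gave 0.43 for BF against BG and passed in the opposite direction, and the mean of both gave -0.01 (adjusted p = 0.96).

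Of the 4 uncoupling proteins and close kin, Slc25a30 rose. This carrier, first described in kidney, is close in sequence to the uncoupling proteins. Its soleus signals were 7.63, 7.06 and 8.02 in BF, 6.51, 6.41 and 6.72 in BG and 6.84, 6.84 and 6.79 in FC. Every BF array lay above every ground array, by a log2 change of 1.02 ± 0.23 (adjusted p = 0.0049, or 0.052 with ordinary contrasts of the one-way model) relative to BG and 0.75 ± 0.23 (adjusted p = 0.025) relative to FC, the latter lost on leaving out BF soleus replicate 1 or 3 or any FC soleus array (adjusted p up to 0.12). Of its 4 other probe sets, those with mean signals of 6.28 and 5.95 passed against BG at 0.84 and 0.61, and those with 4.21 and 3.94 did not, at 0.36 and 0.03.

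In EDL the same gene had another order. Signals were 7.04, 7.73 and 7.24 in BF, 7.18, 7.33 and 7.76 in BG and 8.75, 9.10 and 8.39 in FC, so that BF and BG overlapped and FC lay above both. BF was lower than FC by a log2 change of -1.41 ± 0.23 (adjusted p = 0.0033), and FC exceeded BG by 1.32 ± 0.23, which did not pass (adjusted p = 0.055). Subtracting the EDL change of BF vs. FC from the soleus change gave 2.15 ± 0.32 (adjusted p = 0.0038). The probe set of mean signal 6.28 gave -1.5 for BF against FC in EDL and also passed.

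Ucp3, an uncoupling protein of skeletal muscle, varied widely in soleus, at 8.50, 7.63 and 8.95 in BF, 7.95, 8.68 and 8.88 in BG and 7.22, 7.99 and 7.79 in FC. The change against BG was -0.15 with an interval of -0.84 to 0.55 (adjusted p = 0.78). In EDL its signals were 9.02, 8.71 and 9.13 in BF, 10.13, 9.43 and 10.49 in BG and 8.14, 8.83 and 8.52 in FC. All BG arrays lay above those of BF and FC, which overlapped. The EDL changes were -1.06 ± 0.33 for BF against BG (unadjusted p = 0.00489, adjusted p = 0.20) and -1.53 ± 0.33 for FC against BG (unadjusted p = 0.000233, adjusted p = 0.10), the lowest of the 57 genes in both comparisons, and neither passed. Its second probe set, of mean signal 7.49, exceeded FC in BF by 1.12 for soleus and 1.25 for EDL, which passed, whereas the first gave 0.69 and 0.46, which did not. Ucp1, the uncoupling protein of brown fat, ranged from 3.62 to 4.22 over the 18 arrays, near the low end of the signal scale, and did not pass in any of the 9 comparisons. Slc25a14 changed by -0.01.

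**Figure D3:**
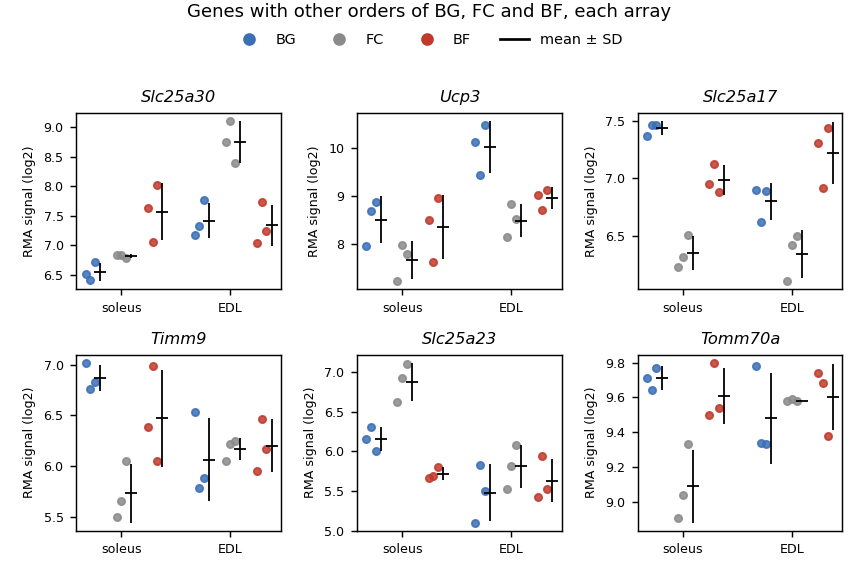
Log2 RMA signals on each array for 6 genes whose groups take other orders, with the mean and SD of each group of 3. Slc25a30 is highest in BF in soleus and in FC in EDL, and Timm9 and Tomm70a are lowest in FC in soleus.

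Iron, glutathione and orphan carriers had 2 of 5 members lower in BF than in BG soleus. Slc25a39, which brings glutathione into mitochondria, was lower in both muscles. Soleus signals were 10.92, 10.62 and 10.68 in BF, 11.26, 11.19 and 11.20 in BG and 11.47, 11.62 and 11.62 in FC. EDL signals were 10.83, 10.70 and 10.69 in BF, 11.16, 11.63 and 11.25 in BG and 11.40, 11.49 and 11.56 in FC. Every BF array lay below every ground array of its muscle. The log2 changes in soleus were -0.48 ± 0.12 (adjusted p = 0.0091) relative to BG and -0.83 ± 0.12 (adjusted p = 0.00013) relative to FC. For EDL they were -0.61 ± 0.12 (adjusted p = 0.035) and -0.74 ± 0.12 (adjusted p = 0.0031), in the same order. All 3 probe sets of the gene passed in EDL in both comparisons. The call against BG in EDL ended without any of 9 single arrays (adjusted p up to 0.14), namely the 3 of BF EDL, replicates 2 and 3 of BG EDL and of BG soleus, and replicate 2 of FC in either muscle. Slc25a35, an orphan, changed by -0.52 and -0.91 against BG and FC in soleus, the first lost without BF soleus replicate 3 or BG soleus replicate 1 or 3 (adjusted p up to 0.13). The mitoferrins, which carry iron, did not pass against BG, at 0.06 for Slc25a37 and 0.42 for Slc25a28.

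Of the 7 genes with a Tomm symbol, which include those of the TOM complex, 4 were lower in BF than in BG soleus and 0 higher. Tomm40l, a paralog of the channel protein, measured 8.43, 8.14 and 8.50 in BF, 9.14, 8.99 and 9.17 in BG and 9.03, 9.17 and 9.18 in FC soleus. The ground groups overlapped and lay above BF, with log2 changes of -0.75 ± 0.11 (adjusted p = 0.00034) and -0.77 ± 0.11 (adjusted p = 0.00018). Tomm40, the channel itself, had 7.01, 7.27 and 6.83 in BF, 8.04, 7.63 and 7.43 in BG and 7.25, 7.58 and 7.39 in FC, and fell against BG by 0.66 on the log2 scale (SE 0.14, adjusted p = 0.0041, or 0.083 with ordinary contrasts). Against FC, where the groups overlapped, its change was -0.37 (adjusted p = 0.072).

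The receptors differed among themselves. Tomm20, which reads cleavable leaders, had 12.01, 12.53 and 12.28 in BF and 12.86, 12.85 and 12.85 in BG soleus, a change of -0.58 ± 0.19 (adjusted p = 0.038) that ended without BF soleus replicate 1 or 3 or any BG soleus array (adjusted p up to 0.15). Its 4 other probe sets gave -0.54, -0.55, -0.67 and 0.20 and none passed, nor did the mean of all its probe sets (-0.43, adjusted p = 0.10). Tomm22, the central receptor, had 9.46, 9.60 and 9.66 in BF, 10.26, 10.10 and 10.09 in BG and 9.69, 9.48 and 9.61 in FC. BF and FC overlapped below BG, at -0.58 for BF (adjusted p = 0.0066) and -0.56 for FC (adjusted p = 0.015). Its second probe set gave another picture for FC, with -0.40 for BF against BG, -0.42 for BF against FC and 0.02 for FC against BG. Tomm70a, the receptor preferred by carrier precursors, had 9.50, 9.80 and 9.54 in BF and 9.71, 9.64 and 9.77 in BG, which overlapped, and was lower in FC at 8.91, 9.04 and 9.33. The change of BF against FC was 0.52 ± 0.14 (adjusted p = 0.013), lost without BF soleus replicate 2 or FC soleus replicate 1 (adjusted p up to 0.058), and that of FC against BG was -0.62 ± 0.14 (adjusted p = 0.011). The call against FC was also lost with ordinary contrasts and with the mean of all probe sets of Tomm70a (adjusted p up to 0.087). That of FC against BG was lost with ordinary contrasts (adjusted p = 0.064).

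Of the 5 genes of TIM23 and its motor, Timm44, which tethers the motor, was lower in BF than in BG soleus, by a log2 change of -0.42 ± 0.14 (adjusted p = 0.042). Its arrays gave 10.22, 9.66 and 9.77 in BF and 10.21, 10.38 and 10.31 in BG, so that 1 BF array lay among those of BG, and the call ended without any of 9 single arrays (adjusted p up to 0.15), namely BF soleus replicates 2 and 3, all of BG soleus, replicate 2 of FC in either muscle, BF EDL replicate 1 and BG EDL replicate 3. All 3 probe sets of the gene passed. Timm23, the channel, had 11.92, 12.03 and 12.22 in BF and 12.22, 12.21 and 12.22 in BG, a change of -0.16 with an interval of -0.39 to 0.07 (adjusted p = 0.31). Timm50 and Timm17a gave -0.34 and -0.31 and did not pass.

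Among TIM22, the small TIM chaperones and Timmdc1, 3 of 10 genes were lower in BF than in BG soleus. Timm22, the channel that inserts carriers, stood at 8.14, 7.93 and 7.87 in BF, 8.74, 8.66 and 8.77 in BG and 8.56, 8.29 and 8.48 in FC. All BF arrays lay below all ground arrays, with changes of -0.75 ± 0.13 (adjusted p = 0.00097) relative to BG and -0.47 ± 0.13 (adjusted p = 0.016) relative to FC, the latter lost without BF soleus replicate 3 or FC soleus replicate 1 or 3 (adjusted p up to 0.062). Its second probe set also passed in both, at -0.35 and -0.53. Timmdc1, an assembly factor of complex I with a TIM-like domain, had 7.54, 7.14 and 7.47 in BF, 8.20, 7.93 and 8.19 in BG and 7.94, 8.17 and 8.19 in FC. BF was lower than either by -0.72 ± 0.17 (adjusted p = 0.0062 and 0.0051). Timm10b, of the TIM22 complex, changed by -0.36 against BG, and all 4 of its probe sets passed. That call ended without BF soleus replicate 1 or 3 or BG soleus replicate 1 or 2 (adjusted p up to 0.12).

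Timm9, a small TIM chaperone, varied in BF soleus at 6.38, 6.99 and 6.05, against 7.02, 6.76 and 6.83 in BG and 5.50, 5.65 and 6.05 in FC. BF overlapped BG, and its lowest array equalled the highest of FC. FC was lower than BG by a log2 change of -1.13 ± 0.22 (adjusted p = 0.0047), while BF exceeded FC by 0.74 ± 0.22 (adjusted p = 0.024), a call lost without BF soleus replicate 2 or FC soleus replicate 1 or 2 (adjusted p up to 0.12). Its second probe set, of mean signal 5.40, gave 0.91 for FC against BG, in the opposite direction, and did not pass. Both calls were lost with ordinary contrasts and with the mean of both probe sets. Adjusted p rose up to 0.83 for FC against BG and 0.76 for BF against FC.

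The ground groups of soleus differed from each other in 10 of the 57 genes, 8 lower and 2 higher in FC than in BG, with a background of 9.8% over all genes, 4.03% lower and 5.78% higher. The median change was 0 for the 57 genes and 0.05 for all genes. Lower in FC were 6 of the 22 import genes, Timm9, Timm8a1 (-0.70), Tomm70a, Timm10 (-0.58), Tomm22 and Timm17a (-0.50), with the carriers Slc25a17 and Slc25a11, while Slc25a23 and Slc25a10 were higher. The count was 6 without any one of the BG soleus arrays or FC soleus replicate 1, and 2 without FC soleus replicate 2. Leaving out single arrays ended the calls of Timm10 (13 arrays, adjusted p up to 0.17), Timm8a1 (10 arrays, up to 0.15), Timm17a (BG replicate 2 or 3 or FC replicate 2, up to 0.084), Tomm22 (BG replicate 1 or FC replicate 2, up to 0.080), Tomm70a (FC replicate 1 or 2, up to 0.054) and Slc25a10 (BG replicate 2 or FC replicate 1 or 2, up to 0.075). With the mean of all probe sets of a gene the calls of Timm9, Timm10, Tomm22 and Slc25a10 were lost as well. BF and FC were each compared with the same BG arrays. Of the 6 import genes, BF against BG gave -0.39 for Timm9, -0.42 for Timm8a1, -0.09 for Tomm70a, 0 for Timm10, -0.58 for Tomm22 and -0.31 for Timm17a, and Tomm22 was the one that passed.

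The descriptions of BF EDL replicates 2 and 3 give a mission number other than that of their titles and source names, which name Bion-M1, and the titles were followed. In EDL, 1 of the 57 genes passed between BF and BG, Slc25a39, against 0.379% of all genes, and 9 had an unadjusted p under 0.05, against 12.1% of all genes. Between BF and FC 5 passed, 1 higher and 4 lower, against 3.53% of all genes, 1.02% higher and 2.52% lower. Slc25a30, Slc25a39, Slc25a37 (-0.74, mitoferrin) and Slc25a15 (-0.58) were lower and Slc25a17 was higher in BF. No import gene was among them. The count was 8 without BF soleus replicate 2 and 3 without BF EDL replicate 1 or 3 or FC EDL replicate 2 or 3, each of which ended the call of Slc25a15 (adjusted p up to 0.093), as did FC EDL replicate 1. The call of Slc25a37 ended without any single BF EDL array or FC EDL replicate 2 or 3. Slc25a17 had 7.31, 6.92 and 7.44 in BF and 6.10, 6.42 and 6.50 in FC EDL, a log2 change of 0.88 ± 0.14 (adjusted p = 0.0032) with no overlap. Between FC and BG in EDL limma passed 0 of the 57, with a background of 0.0323%, and 10 had an unadjusted p under 0.05, against 11.1% of all genes.

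The difference between muscles was tested by subtracting the change between BF and BG in EDL from the same change in soleus. By this test 4 of the 57 genes passed, 1 higher and 3 lower, against 9.26% of all genes, 4.21% higher and 5.04% lower. Slc25a17 gave -0.87 ± 0.20 (adjusted p = 0.017), where soleus gave -0.45 and EDL 0.42. Slc25a11 gave -0.73 ± 0.21 (adjusted p = 0.037) and Slc25a15 -0.69 ± 0.19 (adjusted p = 0.032), while Slc25a30 gave 1.11 ± 0.32 (adjusted p = 0.042). The call of Slc25a17 was kept on leaving out each array in turn, while those of Slc25a11, Slc25a15 and Slc25a30 were lost without any of 9, 5 and 12 single arrays (adjusted p up to 0.085, 0.085 and 0.11). With the mean of all probe sets of a gene Slc25a17 was lost too (-0.13, adjusted p = 0.48), as were Slc25a15 (-0.24, adjusted p = 0.33) and Slc25a30 (0.61, adjusted p = 0.078). The count was 1 without BG soleus replicate 2 or 3 or BG EDL replicate 3, and 2 without BF soleus replicate 1 or BF EDL replicate 1. With each array centred on its median, 6 genes were lower and 0 higher. No import gene passed. Of the 22, 19 lay below zero, with a median of -0.24, beside 5525 of all 12393 genes, with a median of 0.05. For BF vs. FC 1 of 57 passed, Slc25a30, against 2.04% of all genes.

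**Figure D4:**
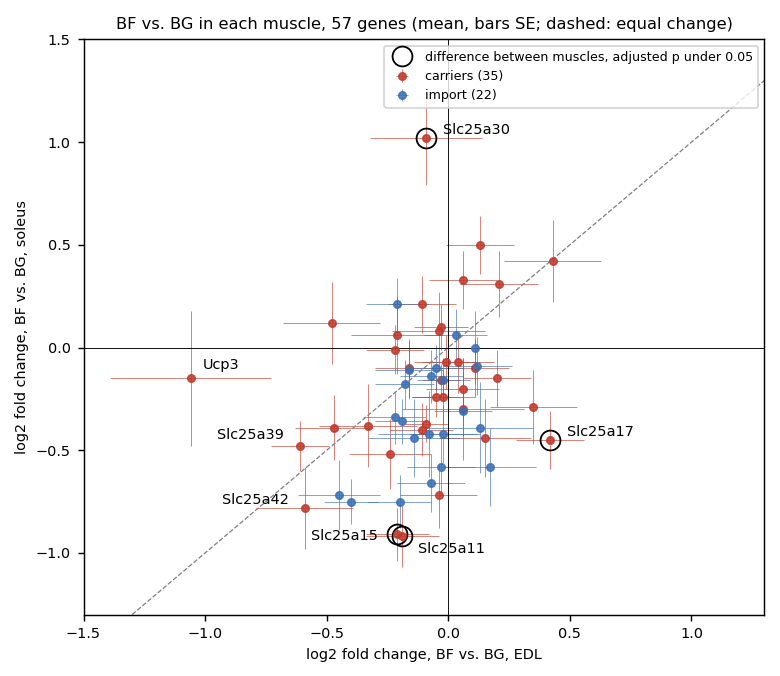
Log2 fold change of BF against BG in EDL (horizontal axis) and in soleus (vertical axis) for the 57 genes, with standard errors; the dashed line marks equal change. Circles mark the 4 genes whose change differed between muscles, with Slc25a30 at 1.02 in soleus and -0.09 in EDL.

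On the ground, soleus and EDL differed in 24 of the 57 genes, 13 higher and 11 lower in soleus, where 24.2% of all genes differed, 11.8% higher and 12.4% lower. The contrast was the mean of BG and FC in soleus minus that in EDL. Higher in soleus were Slc25a23 (log2 difference 0.87), Timm8a1 (0.87), Slc25a20 (0.82, SE 0.11, adjusted p = 4e-05), Slc25a5 (0.69), Slc25a13 (0.60), Tomm20 (0.59), Timm10 (0.55) and Tomm40 (0.45). Higher in EDL were Slc25a30 (-1.40, SE 0.16, adjusted p = 6.2e-06), Ucp3 (-1.17, SE 0.23, adjusted p = 0.0012), Slc25a25 (-0.88), Slc25a37 (-0.81), Slc25a51 (-0.45, an NAD carrier) and Tomm7 (-0.38). Slc25a4 had 0 and Timm22 0.25, which did not pass. With the mean of all probe sets of a gene the call of Tomm7 was lost (adjusted p = 0.91). Those of Slc25a10, Slc25a17 and Timm29 were lost in that setting too. Leaving out single arrays ended the calls of Slc25a10 (12 arrays, adjusted p up to 0.13) and Slc25a17 (5 arrays, up to 0.085). It also ended those of Timm17b (5 arrays, up to 0.082), Timm23 (4 arrays, up to 0.07) and Timm29 (1 array, up to 0.058). Among the 13 genes higher in soleus, the BF arrays of the muscles overlapped for 9, among them Slc25a20, at 9.89 to 10.03 in soleus and 9.86 to 10.01 in EDL, and Tomm40, at 6.83 to 7.27 and 7.06 to 7.10. For the other 4 every BF soleus array lay above every BF EDL array, namely Slc25a13, Slc25a33, Timm8a1 (8.72 to 9.91 and 8.31 to 8.60) and Timm10. Of the 11 lower in soleus, 7 overlapped in BF and 4 stayed apart, Slc25a26, Slc25a37, Slc25a51 and Timm29. These overlaps were not tested, and their share among all genes of the array that differed between muscles on the ground was not counted.

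**Figure D5:**
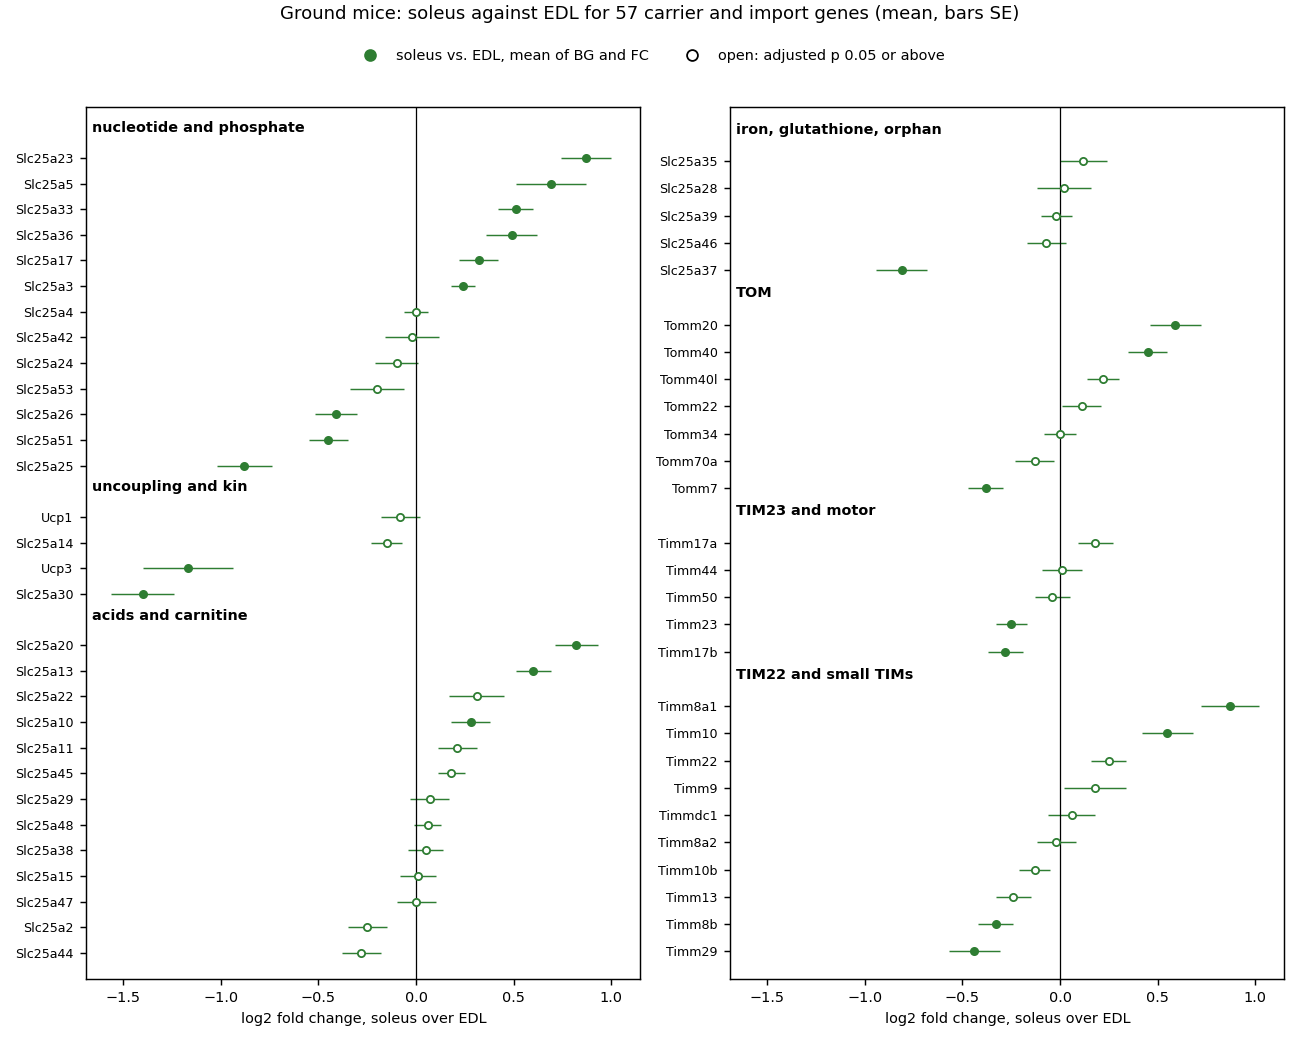
Log2 difference between soleus and EDL in ground mice, the mean of BG and FC, for each of the 57 genes with its standard error, by role. Filled points passed an adjusted p of 0.05; Slc25a30 at -1.40 and Ucp3 at -1.17 lie farthest to the left.

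Other genes of the pathways gave a wider view of BF against BG in soleus. Of 23 partners of import, 12 fell and 1 rose, with a median log2 change of -0.38, beside the 12.3% lower and 11.1% higher of all genes. Against FC 6 fell and 3 rose, with a median of -0.07, beside 16% lower and 9.02% higher. The outer membrane assembly proteins Mtx2 (-0.96) and Samm50 (-0.76), the leader peptidase subunits Pmpcb (-0.67) and Pmpca (-0.49) and Hspa9, the motor chaperone (-0.60), were lower, and Gfer, which reoxidises the intermembrane space import factor, was higher (0.36). Samm50 was also lower than in FC (-0.93), whereas Mtx2 gave -0.06 against FC. Of 16 other proteins of mitochondrial membrane transport, 5 fell, among them Cpt2, which acts next to Slc25a20 in fatty acid entry (-1.22), and 2 rose, Tspo (0.76) and Sfxn2 (0.63). Against FC 5 fell and 0 rose, with a median of 0.01. The channels Vdac1, Vdac2 and Vdac3 did not pass, at -0.14, -0.05 and -0.23.

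Respiratory chain and ATP synthase subunits had 35 of 84 lower and 0 higher than in BG, with a median of -0.26, and 24 lower and 0 higher than in FC, with a median of -0.22. Among 10 regulators of mitochondrial content 5 fell and 2 rose against BG, and 4 fell and 1 rose against FC. Beside both lists, 12.3% of all genes were lower and 11.1% higher against BG, and 16% and 9.02% against FC. Against BG, Ppara (-2.06), a receptor that activates fatty acid oxidation genes, Ppargc1a (-1.60), Ppargc1b (-1.15), Esrra (-0.95) and Tfam (-0.66) were lower, and Pprc1 (0.77) and Ppard (0.57) were higher. Nrf1 and Gabpa, the factors of 2 of the motifs above, gave 0.32 and -0.31 and did not pass. In EDL none of these 4 lists had a gene that passed between BF and BG, where 0.379% of all genes passed.

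Probe sets of the same gene did not always move together. Of the 27 genes with several probe sets, 11 passed for BF against BG in soleus on the brightest one, and 8 more passed on another probe set alone. These 8 were Slc25a5, Slc25a26, Slc25a29, Slc25a36, Slc25a44, Slc25a46, Timm29 and Tomm7. The same shares over all genes of the array with several probe sets were not counted. Tomm7, a small TOM subunit, gave 0.21 on its brightest probe set and -1.09 on another that passed. Timm29, of TIM22, gave -0.44 on the brightest, which did not pass, and -1.07 on the other, which did.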

How the data were processed

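RNA of soleus and EDL of BF, BG and FC mice was labelled with biotin and hybridised to Affymetrix mouse expression arrays, 3 per group and muscle and 18 in all. The deposited values are log2 signals, which the authors made from all arrays together by RMA (Robust Multi-array Average) in Partek. RMA corrects background, quantile-normalizes and summarizes probes, so that a change common to all genes is removed. Signals near either end of the scale can understate a change. Array medians ran from 6.17 to 6.26, and arrays of a group correlated at 0.978 to 0.995. For arrays, their number limits the precision.

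Groups were taken from the sample titles, although the descriptions of BF EDL replicates 2 and 3 name another mission number. The values were used as deposited. Of 22690 probe sets, 64 controls were left out, and 22626 were fitted with limma 3.58.1 in R 4.3.3, with 1 mean for each of 6 groups. Variances were moderated by eBayes, with 12 residual degrees of freedom and 5.1 from the prior. The 9 contrasts were BF vs. BG, BF vs. FC and FC vs. BG in each muscle, the differences of the first 2 between muscles, and soleus vs. EDL on the ground. P values were adjusted by Benjamini-Hochberg over all probe sets, and a gene passed with an adjusted p under 0.05, whatever its fold change. Genes were named by the platform annotation, and 691 probe sets that name several genes, 3 of them naming a carrier or import gene, and 1555 that name none stand for no gene. The background shares count 12393 genes, each by its probe set with the highest mean. Standard errors and 95% intervals are those of the moderated fit. The script was tested on simulated data. Figures were drawn with matplotlib 3.10.9 in Python 3.11.15.

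The members, gene lists and promoter motifs were chosen with earlier results of these data known. Named with full values were genes that passed with a change over 2-fold in any contrast, the 2 largest passing changes of each role group in soleus BF vs. BG, and Ucp1, Ucp3, Slc25a3, Slc25a4, Slc25a5, Slc25a20, Tomm20, Tomm40 and Timm23; others are given by value or count, and Tomm22, Tomm70a and Slc25a10 were described in full after their values were seen. Alternatives were the arrays of 1 muscle alone, ordinary contrasts of the one-way model, array quality weights, the replicate number as a block, centring on array medians, a mean log2 signal above 6, the mean of all probe sets of a gene, and leaving out each array in turn. Protein sequences, Ucp2 and some other members of these families were not analysed here.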

Additional observations from a re-analysis of the deposited data

Results flagged for a closer look

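The change of BF against BG differed between the muscles for 4 genes, and that of BF against FC for 1, by a test of the difference itself. For BF vs. BG in soleus minus EDL the log2 differences were -0.73 for Slc25a11, -0.69 for Slc25a15, -0.87 for Slc25a17 and 1.11 for Slc25a30. For BF vs. FC the difference was 2.15 for Slc25a30, and FC EDL rather than BF EDL was the group apart in EDL. The BF EDL signals of that gene lay within 7.04 to 7.73, those of BG within 7.18 to 7.76 and those of FC within 8.39 to 9.10.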

How the results depend on the processing

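Of 85 changes called among the 57 genes in the 9 comparisons, 39 were kept under all alternatives run and 0 changed sign. The counts for BF vs. BG and BF vs. FC in soleus (19 and 21) stayed within 1.5 times under the 7 alternatives apart from leaving out an array. So did the 24 of soleus vs. EDL, for which the arrays of 1 muscle alone cannot be used. Under ordinary contrasts the 19 became 13, all lower, of which 10 were among the 19, and Slc25a30 (adjusted p = 0.052), Tomm40 (0.083) and Slc25a10 (0.092) were lost. Ordinary contrasts of the one-way model gave 2 for FC vs. BG in soleus (10 in the report), 0 for BF vs. BG (1) and 0 for BF vs. FC (5) in EDL, and 2 for the BF vs. BG difference between muscles (4). Array quality weights gave 22 for FC vs. BG in soleus, 4, 13 and 6 for BF vs. BG, BF vs. FC and FC vs. BG in EDL, and 11 and 5 for the BF vs. BG and BF vs. FC differences between muscles. The mean of all probe sets gave 6 for FC vs. BG in soleus and 2 for the BF vs. BG difference. EDL arrays alone gave 0 for BF vs. BG. A mean log2 signal above 6 gave 1 for FC vs. BG in EDL and 2 for the BF vs. FC difference. The cause of these shifts was not tested.

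The replicate number as a block gave 19 for BF vs. BG and 22 for BF vs. FC in soleus, 0 for BF vs. BG in EDL and 3 for the BF vs. FC difference between muscles, and it ended the call of Slc25a30 in the BF vs. BG difference (adjusted p = 0.054). Deviations of same-numbered arrays of 1 muscle correlated above 0.1 in 7 of 18 pairs (median 0.0535; 5 of 36 with different numbers), and those of 1 condition in both muscles in 6 of 9 (median 0.139; 1 of 18 with different numbers). The numbers were not taken to pair the samples, since the labels do not say so and not every pair passed 0.1, and whether both muscles of a number came from 1 mouse is not given.

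Leaving out each array in turn gave 12 to 20 genes for BF vs. BG, 13 to 23 for BF vs. FC and 2 to 13 for FC vs. BG in soleus. It gave 0 to 1, 3 to 8 and 0 to 2 for the same comparisons in EDL, 1 to 5 and 1 to 3 for the BF vs. BG and BF vs. FC differences between muscles, and 21 to 27 for soleus vs. EDL. FC vs. BG in EDL gave 2 without BF soleus replicate 2 or BG EDL replicate 2 and 1 without BF soleus replicate 3, BF EDL replicate 1 or 2 or FC EDL replicate 3. The BF vs. FC difference between muscles gave 3 without BG EDL replicate 2 and 2 without BG soleus replicate 2, BF EDL replicate 2 or BG EDL replicate 1. With 3 arrays a group, and signals near either end of the scale for Ucp1 and Slc25a4, small changes could be missed.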
